A study of Homo sapiens with 12 samples.

Results

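A set of 10 genes of the thioredoxin and peroxiredoxin system was followed in 2 human multiple myeloma cell lines, each exposed for 6 h to IT848 or to its solvent. The genes were taken by exact symbol: the thioredoxins TXN and TXN2, the thioredoxin reductases TXNRD1 and TXNRD2, the sulfiredoxin SRXN1 and the peroxiredoxins PRDX1, PRDX2, PRDX3, PRDX5 and PRDX6. All 10 were found among the 25680 gene symbols of the deposited tables, and all 10 passed the filter on low counts, which left 16782 genes. The 4 groups were MM.1S given IT848 at 6 µM, MM.1S given DMSO, U266 given IT848 at 6 µM and U266 given DMSO, with 3 libraries each and 12 in all. Both are established lines of malignant plasma cells, each derived from a single patient, and the labels describe IT848 as an inhibitor of NF-kB. Whether a group's 3 libraries are separate cultures is not labelled, and each p-value therefore measures the spread between these libraries, which may be technical.

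Thioredoxin is a small protein that reduces disulfide bonds in other proteins and is itself reduced by thioredoxin reductase, a selenoprotein that draws its electrons from NADPH. Peroxiredoxins break down hydrogen peroxide with a reactive cysteine, most of them are recycled by thioredoxin, and sulfiredoxin rescues those whose cysteine has been oxidised too far. The cytosol has TXN with TXNRD1 and the mitochondria have TXN2 with TXNRD2, and several cytosolic members are known targets of the transcription factor NRF2, which binds the antioxidant response element. Plasma cells make disulfide-bonded antibody in bulk, which draws on the thiol chemistry of the cell.

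The libraries held 50627690 to 72039748 transcript counts. For the 10 genes the most counted transcript had from 415 counts, for TXNRD2, to 24287 counts, for TXNRD1, in a library. Counting error weighs most on TXNRD2, which had 415 to 887 counts, and its share of the spread was not tested. Plasma cell markers were above 1 CPM (the count scaled to the library total) for 8 of 8 genes in each group. Their summed level was 6145 to 6361 CPM in MM.1S with IT848 and 6402 to 6458 CPM in MM.1S with DMSO, and 2684 to 2777 CPM in U266 with IT848 and 3112 to 3290 CPM in U266 with DMSO. Genes within the sum moved in opposite directions in both lines. In MM.1S SLAMF7 had a mean of 3755 CPM with IT848 and 2796 CPM with DMSO. TNFRSF17 was also higher with IT848 there, and MZB1 was nearly level at 251 and 247 CPM. SDC1 had 318 CPM with IT848 and 655 CPM with DMSO in MM.1S, and IRF4, XBP1, PRDM1 and CD38 were also lower with IT848. In U266 SLAMF7 had 905 CPM with IT848 and 652 CPM with DMSO, and MZB1 was nearly level at 7.96 and 7.84 CPM. SDC1 had 734 CPM with IT848 and 1067 CPM with DMSO in U266, and TNFRSF17, IRF4, XBP1, PRDM1 and CD38 were also lower with IT848. T and NK cell markers reached a level above 1 CPM for 0 of 5 genes and erythroid markers for 0 of 4. Myeloid markers did so for 0 of 5 in MM.1S and 1 of 5 in U266. A stromal list reached it for 4 of 5 genes, with LUM under 1 CPM, and its summed level moved with treatment: 21.9 to 28.5 CPM in MM.1S with IT848 against 14.9 to 19.6 CPM in MM.1S with DMSO, and 35.0 to 43.1 CPM in U266 with IT848 against 27.7 to 32.7 CPM in U266 with DMSO. The part of either list in the results was not tested. One U266 library with IT848, replicate 1, carried reads of 5 genes that mark MM.1S and are almost absent from U266 with DMSO, at 0.827% of their MM.1S level. That share was 0.0334% and 0.0684% in replicates 2 and 3 of U266 with IT848, while U266 with DMSO is low by the choice of genes. MM.1S with DMSO, replicate 2, carried reads of 13 genes that mark U266 and are almost absent from MM.1S with IT848. They stood at 0.383% of their level in U266. Replicates 1 and 3 of MM.1S with DMSO had 0.0268% and 0.0522%, while MM.1S with IT848 is low by the choice of genes. Calls lost without the 2 libraries with reads of the other line are given with their value in that setting.

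Upstream sequences of the gene starts were taken from RefSeq on GRCh38.p14, a later build than the hg19 of the deposited tables, and are shown for the 3 genes of the cytosolic branch that had a large response and a window in that table. The core of the antioxidant response element was searched on both strands as TGACNNNGC in windows of 250 bases before to 50 bases after each start. It was found in 2 of the 11 windows that belonged to 7 of the 10 genes, and in 13.3% of all 35116 windows, so that the share among these genes is no more than a description. Both windows are those of TXNRD1, the cytosolic reductase. The 250 bases before the first TXNRD1 start, chr12:104215529-104215778 on the plus strand, hold 1 whole match 99 bases before the start, and the capitals at the right end belong to a second match that runs across the start. Capitals mark the matches.
TXNRD1: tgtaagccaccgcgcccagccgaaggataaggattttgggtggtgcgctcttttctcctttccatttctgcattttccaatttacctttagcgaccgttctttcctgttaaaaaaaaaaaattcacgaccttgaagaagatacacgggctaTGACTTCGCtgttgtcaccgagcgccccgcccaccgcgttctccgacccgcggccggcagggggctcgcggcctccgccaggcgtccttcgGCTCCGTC
TXNRD1 match across the first start, chr12:104215760-104215789: ggcgtccttcgGCTCCGTCAgttcccacag
TXNRD1 match before the second start, chr12:104286919-104286948: agtggatttctGCTTTGTCAttctgactct
SRXN1, chr20:653201-653450, minus strand: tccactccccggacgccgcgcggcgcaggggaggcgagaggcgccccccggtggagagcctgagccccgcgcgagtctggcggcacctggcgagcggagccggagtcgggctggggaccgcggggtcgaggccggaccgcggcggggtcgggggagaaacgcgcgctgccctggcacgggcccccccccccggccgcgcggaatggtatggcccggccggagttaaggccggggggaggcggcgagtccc
TXN, chr9:110256508-110256757, minus strand: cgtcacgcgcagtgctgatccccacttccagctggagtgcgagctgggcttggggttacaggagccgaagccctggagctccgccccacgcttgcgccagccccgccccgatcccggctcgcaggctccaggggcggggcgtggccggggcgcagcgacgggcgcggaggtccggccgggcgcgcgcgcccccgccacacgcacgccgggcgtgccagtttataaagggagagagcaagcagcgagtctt
For SRXN1 and TXN these letters do not hold the searched core, which says nothing about other sequence or about binding of a factor. The AP-1 site TGANTCA, also searched on both strands, was in 0 of the 11 windows and in 7.71% of all windows. TGANTCA and TGACNNNGC can overlap in a longer sequence.

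Levels of different genes can be compared per transcript length, with the deposited TPM (a level scaled to length and library total) of each gene's most counted transcript. On that scale PRDX1, the main cytosolic peroxiredoxin, and TXN were the most abundant of the 10 in MM.1S, and PRDX1 led in U266. PRDX1 had 406 ± 13.6 TPM in MM.1S with IT848 and 267 ± 9.98 TPM in MM.1S with DMSO, and 331 ± 4.17 TPM in U266 with IT848 and 240 ± 4.16 TPM in U266 with DMSO (SD, n = 3 each). TXNRD2, the mitochondrial reductase, had the lowest mean TPM in each group, between 8.93 and 11.9 TPM over the 12 libraries. SRXN1 was close to it in U266 with DMSO, at 12.9 to 14.4 TPM, and stood at 109 to 121 TPM in MM.1S with IT848, overlapping PRDX6, the peroxiredoxin with a single catalytic cysteine, which had 108 to 113 TPM there.

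**Figure D1:**
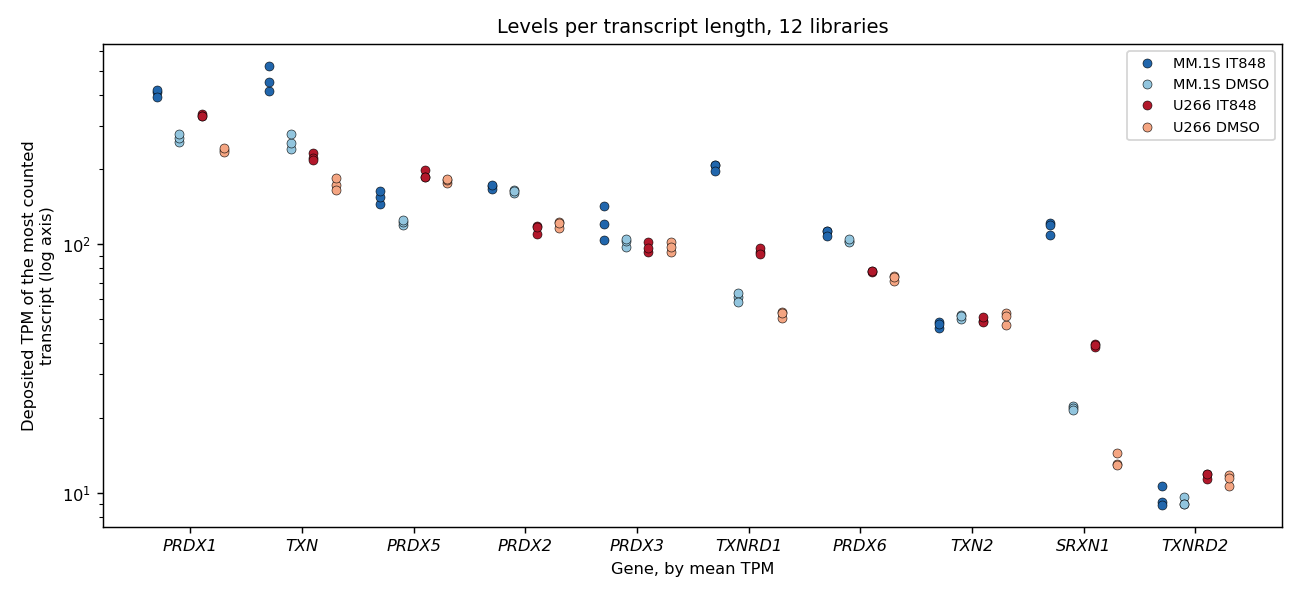
Deposited TPM of the most counted transcript of each gene on a log axis, 1 point per library, in the order MM.1S with IT848, MM.1S with DMSO, U266 with IT848 and U266 with DMSO within each gene. SRXN1 spans 12.9 to 121 TPM over the groups, while TXN2 stays between 46.1 and 52.7 TPM.

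Exposure to IT848 went with higher levels of the cytosolic branch in both lines, and with more of the peroxiredoxins in MM.1S. In MM.1S, 8 of the 10 genes rose and 0 fell at an adjusted p below 0.05 (7 rose once a trend with transcript length was taken out), beside 18.7% of all tested genes higher and 19.6% lower. In U266, 4 rose, TXN only at the edge, and 0 fell, beside 4.03% of all tested genes higher and 4.98% lower. The median log2 fold change of the 10 genes was 0.42 in MM.1S, with a median of -0.01 over all tested genes, and 0.10 in U266, with 0.01 over all tested genes. The 3 libraries with IT848 lay above the 3 with DMSO for 9 of the 10 genes in MM.1S, where 22.4% of all genes did so, and for 6 of the 10 in U266, where 14.3% did. Levels within a gene are given as CPM scaled by TMM, adjusted p-values are those of edgeR's quasi-likelihood test with Benjamini-Hochberg adjustment over the 16782 genes, and errors of log2 fold changes are standard errors. In bulk samples fewer cells and less RNA per cell cannot be told apart.

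**Figure D2:**
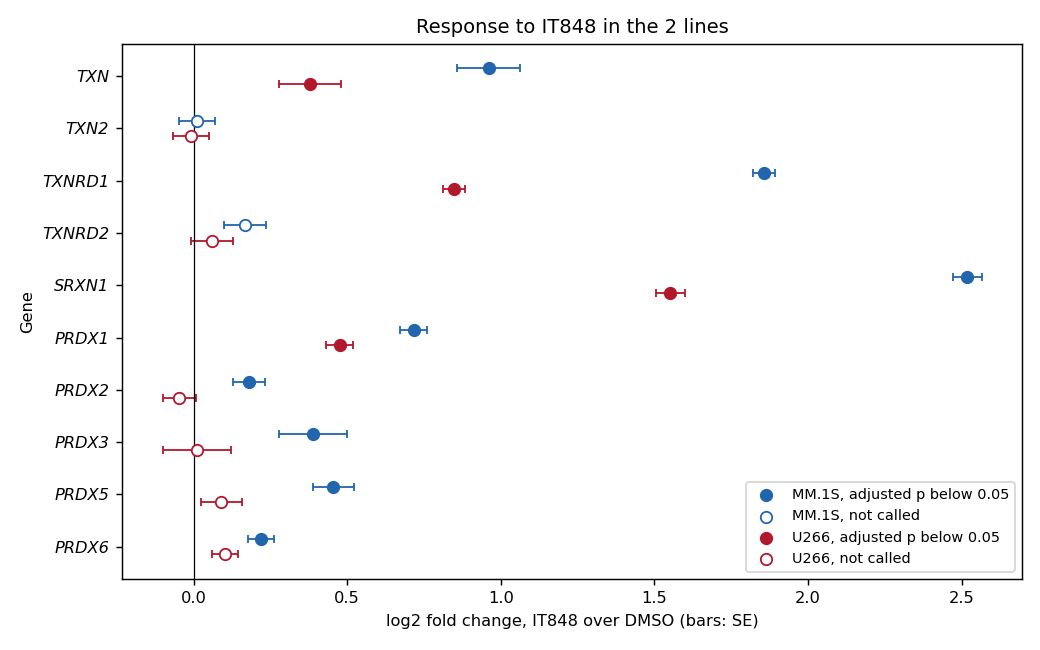
Log2 fold change of each gene, IT848 over DMSO, in MM.1S (blue) and U266 (red), with standard errors and filled points for an adjusted p below 0.05. SRXN1 and TXNRD1 lie farthest to the right in both lines, at 2.52 and 1.86 in MM.1S and 1.55 and 0.85 in U266.

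SRXN1, the repair enzyme of over-oxidised peroxiredoxins, had the largest change of the 10 in both lines. Its CPM was 146, 149 and 145 in MM.1S with IT848 and 25.5, 25.5 and 25.9 in MM.1S with DMSO, and 49.9, 50.6 and 51.4 in U266 with IT848 and 16.7, 16.7 and 18.4 in U266 with DMSO. The 4 groups did not overlap, in the order MM.1S with IT848, U266 with IT848, MM.1S with DMSO and U266 with DMSO. SRXN1 rose by 2.52 ± 0.05 on the log2 scale in MM.1S (5.73-fold, edgeR adjusted p = 5.49e-14) and by 1.55 ± 0.05 in U266 (2.93-fold, edgeR adjusted p = 4.37e-11).

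TXNRD1, which keeps cytosolic thioredoxin reduced, came next. Libraries of MM.1S with IT848 had 2793, 2898 and 2932 CPM and those of MM.1S with DMSO 779, 818 and 783 CPM, while U266 with IT848 had 1333, 1356 and 1326 CPM and U266 with DMSO 721, 762 and 751 CPM. As with SRXN1, both lines were separated fully by treatment, and MM.1S with IT848 stood above all other groups. The rise was 1.86 ± 0.04 (3.62-fold, edgeR adjusted p = 6.1e-14) in MM.1S and 0.85 ± 0.04 (1.80-fold, edgeR adjusted p = 2.18e-09) in U266. TXNRD1 has 7 transcripts in the tables with nearly the same counts, so its summed CPM repeats reads and is not comparable with the CPM of other genes, but the log2 fold changes of both responses were the same to 2 decimals with 1 transcript per gene.

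TXN, the cytosolic thioredoxin itself, had 323, 365 and 451 CPM in MM.1S with IT848 and 179, 191 and 214 CPM in MM.1S with DMSO. In U266 it had 195, 183 and 185 CPM with IT848 and 143, 153 and 137 CPM with DMSO. Treatment separated the libraries of each line, MM.1S with IT848 was the most spread group, and MM.1S with DMSO overlapped U266 with IT848. TXN rose by 0.96 ± 0.10 in MM.1S (1.95-fold, edgeR adjusted p = 1.35e-05) and by 0.38 ± 0.10 in U266 (1.30-fold, edgeR adjusted p = 0.0367). The U266 call was at the edge: leaving out any 1 of the 6 U266 libraries ended it (edgeR adjusted p = 0.0622 to 0.164), as did leaving out replicate 2 of MM.1S with IT848, which shares the variance estimate (0.0509), or both libraries with reads of the other line (0.35, edgeR adjusted p = 0.128). With all libraries kept, it was also lost with 1 transcript per gene (0.38, edgeR adjusted p = 0.0592) and with no filter on low counts (0.38, edgeR adjusted p = 0.106).

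PRDX1 is the most abundant of the peroxiredoxins per length and was the only one of the 5 measured here that was called in both lines. Its CPM was 909, 958 and 959 in MM.1S with IT848 and 541, 567 and 611 in MM.1S with DMSO. In U266 the CPM was 799, 766 and 792 with IT848 and 568, 557 and 571 with DMSO. The treated libraries of each line were above all untreated ones, and the untreated groups of the 2 lines overlapped. PRDX1 rose by 0.72 ± 0.04 in MM.1S (1.64-fold, edgeR adjusted p = 2.38e-08) and by 0.48 ± 0.04 in U266 (1.39-fold, edgeR adjusted p = 6.44e-06). Part of PRDX1 overlaps exons of MMACHC on the other strand, and the strand setting of the counting is not given in the sources used here, so reads there cannot be told apart. MMACHC had 9.92 to 14.3 CPM as group means, against 565 to 942 CPM for PRDX1.

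**Figure D3:**
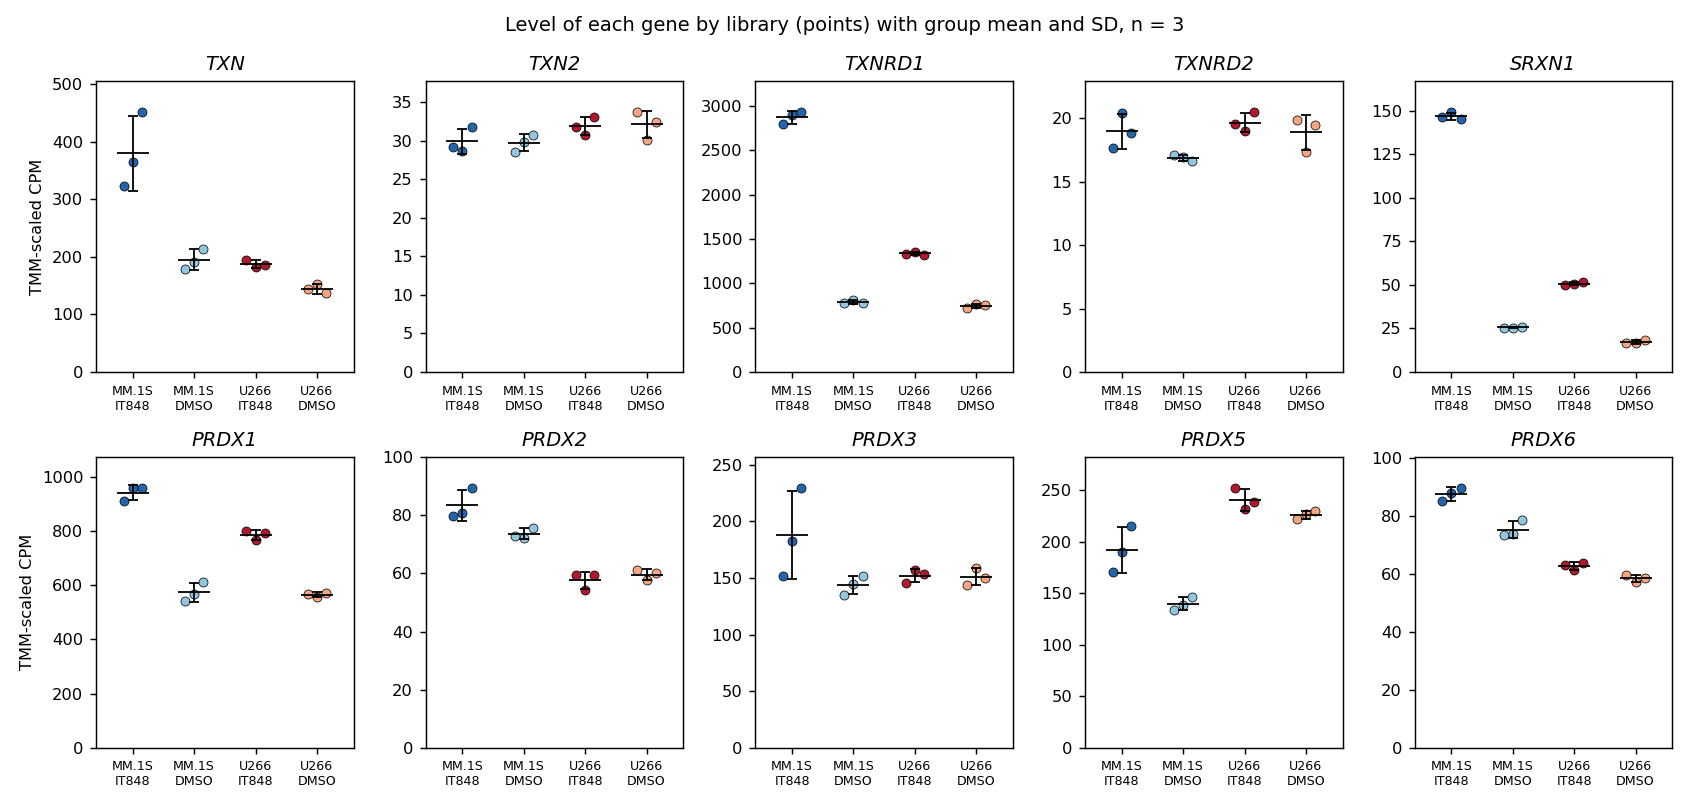
TMM-scaled CPM of each gene in every library (points), with group means and SD (n = 3), in the order MM.1S with IT848, MM.1S with DMSO, U266 with IT848 and U266 with DMSO. Treated libraries stand clear of untreated ones for SRXN1, TXNRD1, TXN and PRDX1, and the 4 groups overlap for TXN2.

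The other peroxiredoxins rose in MM.1S by less and were not called in U266. PRDX5, an atypical peroxiredoxin found in mitochondria, peroxisomes and cytosol, had 171, 190 and 215 CPM in MM.1S with IT848 and 134, 139 and 147 CPM in MM.1S with DMSO, and rose by 0.45 ± 0.07 (edgeR adjusted p = 0.000124). PRDX3, the mitochondrial partner of TXN2, had 152, 183 and 230 CPM in MM.1S with IT848 and 135, 144 and 151 CPM in MM.1S with DMSO, and rose by 0.39 ± 0.11 (edgeR adjusted p = 0.0142). The lowest treated PRDX3 library was thus barely above the highest untreated one, and without replicate 1 of MM.1S with DMSO the call was lost (0.35, edgeR adjusted p = 0.0588). With 1 library left out the PRDX3 value ranged over 0.23 to 0.54, the lower without replicate 3 and the higher without replicate 1 of MM.1S with IT848. PRDX6, which also has phospholipase activity, had 85.0, 87.9 and 89.6 CPM in MM.1S with IT848 and 73.2, 73.7 and 78.6 CPM in MM.1S with DMSO, and rose by 0.22 ± 0.04 (edgeR adjusted p = 0.00107).

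PRDX2, a cytosolic peroxiredoxin best known from red cells, had 79.8, 80.9 and 89.4 CPM in MM.1S with IT848 and 73.0, 72.0 and 75.7 CPM in MM.1S with DMSO. The groups were apart by little, and PRDX2 rose by 0.18 ± 0.05 (edgeR adjusted p = 0.0152), with a change of -0.01 once the length trend was taken out. This call was lost without replicate 3 of MM.1S with IT848 (edgeR adjusted p = 0.0597), without replicate 2 of MM.1S with DMSO (0.0590) and without the 2 libraries with reads of the other line (0.0626), each an edgeR adjusted p. In U266 these 4 peroxiredoxins had log2 fold changes of -0.05 ± 0.05 for PRDX2, 0.01 ± 0.11 for PRDX3, 0.09 ± 0.07 for PRDX5 and 0.10 ± 0.04 for PRDX6, with edgeR adjusted p = 0.189 for PRDX6, the lowest of the 4. TXN, PRDX2 and PRDX3 have several pseudogenes named for them in RefSeq, with 7, 4 and 4 copies, so their counts are uncertain where reads match more than 1 place. Exons of SRXN1 overlap those of AL121758.1 on the same strand, and exons of PRDX2 those of AC018761.2 on the other, with neither in the tables, so reads there are uncertain too.

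The mitochondrial thioredoxin TXN2 and its reductase TXNRD2 did not pass the threshold in either line. TXN2 had 29.2, 28.7 and 31.8 CPM in MM.1S with IT848 and 28.6, 29.8 and 30.8 CPM in MM.1S with DMSO, a log2 fold change of 0.01 ± 0.06 (edgeR adjusted p = 0.926). In U266 TXN2 had 31.7, 30.8 and 33.1 CPM with IT848 and 33.7, 30.1 and 32.5 CPM with DMSO, a log2 fold change of -0.01 ± 0.06 (edgeR adjusted p = 0.961). Its groups overlapped throughout. TXNRD2 had 17.7, 20.4 and 18.8 CPM in MM.1S with IT848 and 17.1, 17.0 and 16.6 CPM in MM.1S with DMSO, which did not overlap but missed the threshold (0.17 ± 0.07, edgeR adjusted p = 0.0656). It passed without replicate 1 of MM.1S with IT848 (0.24, edgeR adjusted p = 0.0143) and without replicate 2 of U266 with DMSO (0.18, edgeR adjusted p = 0.0348). In U266 TXNRD2 had 19.5, 19.0 and 20.5 CPM with IT848 and 19.9, 17.3 and 19.5 CPM with DMSO (0.06 ± 0.07, edgeR adjusted p = 0.695).

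A trend with transcript length separated treated from untreated libraries in MM.1S, overlapped between them in U266, and touched the short genes of the family. The Spearman correlation across genes between a library's deviation from its line's mean and transcript length was -0.484 to 0.0287 in MM.1S with IT848 and 0.168 to 0.451 in MM.1S with DMSO, and -0.277 to 0.123 in U266 with IT848 and 0.00508 to 0.216 in U266 with DMSO. Genes are not independent replicates, so these are descriptions. Replicate 3 of MM.1S with IT848, the library with the most negative value, was also the highest of its group for 8 of the 10 genes, all but SRXN1 and TXNRD2. With each library's trend taken out, the MM.1S log2 fold change of TXN was 0.72, that of PRDX1 0.57, that of PRDX5 0.23, that of PRDX3 0.29 and that of PRDX6 0.13, all still called. PRDX2, with a transcript of 1038 bases, then stood at -0.01 (edgeR adjusted p = 0.869). TXN2 stood at -0.13, just short of the threshold (edgeR adjusted p = 0.0570). SRXN1, with 2689 bases, and TXNRD1, with 4282 bases, kept values of 2.51 and 1.92. In U266 the 4 called genes stayed called, at 1.55 for SRXN1, 0.86 for TXNRD1, 0.45 for PRDX1 and 0.34 for TXN.

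**Figure D4:**
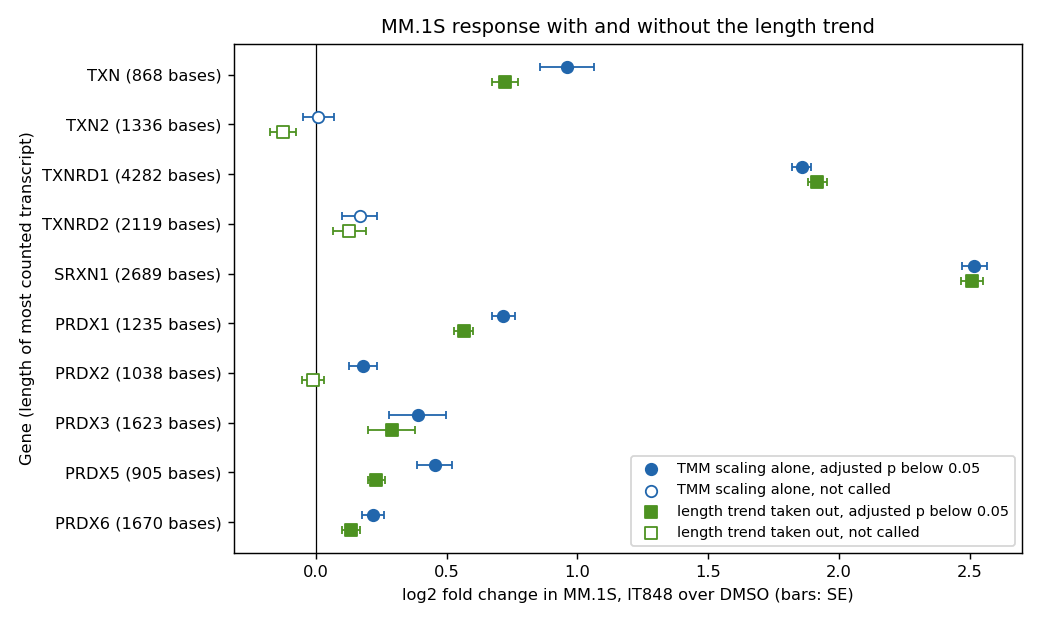
Log2 fold change in MM.1S, IT848 over DMSO, with TMM scaling alone (blue circles) and with the trend on transcript length taken out (green squares), bars for standard errors, filled points for an adjusted p below 0.05. The short genes TXN, PRDX1, PRDX2 and PRDX5 shift to the left, PRDX2 to -0.01, while SRXN1 and TXNRD1 stay near their values.

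The responses of the 2 lines were compared by the interaction of line and treatment, given as MM.1S minus U266. The response was larger in MM.1S for 5 of the 10 genes and smaller for 0, beside 8.49% of all tested genes higher and 8.94% lower. The difference was 1.01 ± 0.05 for TXNRD1 (edgeR adjusted p = 1.44e-08), 0.97 ± 0.06 for SRXN1 (2.91e-07), 0.58 ± 0.14 for TXN (0.0150), 0.36 ± 0.10 for PRDX5 (0.0169) and 0.24 ± 0.06 for PRDX1 (0.0153), all in log2 units with edgeR adjusted p-values. As a ratio of fold changes, MM.1S over U266, this is 2.02 for TXNRD1 and 1.95 for SRXN1. With the length trend taken out, TXNRD1 was at 1.06, SRXN1 at 0.96, TXN at 0.38 and PRDX5 at 0.18, and PRDX1 was at 0.11 and no longer called (edgeR adjusted p = 0.132). PRDX1 also lost its call without the 2 libraries with reads of the other line (0.26, edgeR adjusted p = 0.0656), and PRDX5 lost it without replicate 2 of U266 with IT848 (0.35, edgeR adjusted p = 0.0523). For PRDX2 (0.23 ± 0.08), PRDX3 (0.38 ± 0.16), PRDX6 (0.12 ± 0.06), TXNRD2 (0.11 ± 0.10) and TXN2 (0.02 ± 0.08) the difference did not pass, with edgeR adjusted p = 0.0523 for PRDX2 as the lowest. PRDX2 passed with RLE size factors (edgeR adjusted p = 0.0435), with 1 transcript per gene (0.0271), without replicate 1 of MM.1S with IT848 (0.0229) and with DESeq2 (DESeq2 adjusted p = 0.0187), and stood at 0.07 with the length trend taken out. PRDX3 passed with DESeq2 (DESeq2 adjusted p = 0.0491) and without replicate 1 of MM.1S with IT848 (0.53, edgeR adjusted p = 0.00602).

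Under DMSO the lines already differed for most of the family, as they did for most genes. In MM.1S against U266, 5 of the 10 genes were higher and 2 lower, beside 40.6% of all tested genes higher and 42.1% lower, which is near the background. SRXN1 (0.57 ± 0.05), TXN (0.43 ± 0.10), PRDX6 (0.36 ± 0.04) and PRDX2 (0.30 ± 0.05) were higher in MM.1S. PRDX5 was lower, with 134, 139 and 147 CPM in MM.1S and 222, 228 and 230 CPM in U266 (-0.69 ± 0.07, edgeR adjusted p = 1.87e-07). PRDX5 in MM.1S with IT848, at 192 ± 22.3 CPM, was still below U266 with DMSO, at 226 ± 3.94 CPM (SD, n = 3 each), and their libraries did not overlap. The calls of TXNRD1 (0.09 ± 0.04, edgeR adjusted p = 0.0265) and TXNRD2 (-0.16 ± 0.07, edgeR adjusted p = 0.0395) were marginal, and were lost in 10 and 7 of 20 alternative settings. Without the 2 libraries with reads of the other line they had edgeR adjusted p = 0.207 and 0.0791. With 1 transcript per gene the TXNRD2 difference was -0.42 (edgeR adjusted p = 1.76e-05). PRDX1 (0.02 ± 0.04), PRDX3 (-0.07 ± 0.11) and TXN2 (-0.11 ± 0.06) were not called. The 3 libraries of the lines did not overlap for 5 genes higher and 2 lower, where 41.6% and 43.2% of all genes did not.

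Ratios of members per length describe the balance within the system, and were not tested. TXNRD1 per TXN was 0.378 to 0.503 in MM.1S with IT848 and 0.212 to 0.253 in MM.1S with DMSO, and 0.398 to 0.433 in U266 with IT848 and 0.289 to 0.320 in U266 with DMSO, all from deposited TPM. SRXN1 per PRDX1 was 0.278 to 0.295 in MM.1S with IT848 and 0.0778 to 0.0866 in MM.1S with DMSO. The same ratio in U266 was 0.115 to 0.121 with IT848 and 0.0541 to 0.0591 with DMSO. In all 4 cases treated and untreated libraries did not overlap, and the treated ones had more reductase per thioredoxin and more sulfiredoxin per peroxiredoxin transcript. PRDX1 made up 39.9% to 43.4% of the summed TPM of the 5 peroxiredoxins in MM.1S with IT848 and 34.6% to 35.8% in MM.1S with DMSO, and 40.7% to 40.8% in U266 with IT848 and 33.4% to 34.0% in U266 with DMSO. TXN per TXN2, the cytosolic over the mitochondrial form, was 8.50 to 10.9 in MM.1S with IT848 and 4.83 to 5.37 in MM.1S with DMSO, against 4.31 to 4.74 in U266 with IT848 and 3.24 to 3.92 in U266 with DMSO. TXNRD2 per TXN2 was 0.187 to 0.230 in MM.1S with IT848 and 0.174 to 0.192 in MM.1S with DMSO, which overlap. In U266 it was 0.233 to 0.241 with IT848 and 0.224 to 0.226 with DMSO, which do not. TXNRD2 had only 415 to 887 counts in a library, and neither TXNRD2 nor TXN2 was called in U266. This small gap is thus no more than a description.

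Of 45 genes from 8 lists of related redox genes, 44 were tested. In MM.1S 14 rose and 8 fell, beside 18.7% of all tested genes higher and 19.6% lower, and in U266 8 rose and 4 fell, beside 4.03% higher and 4.98% lower. The counts of single lists below are to be read against these shares, and those of so few genes describe the list only. The list median log2 fold change was 0.08 in MM.1S and 0.02 in U266, beside -0.01 and 0.01 over all tested genes. PRDX4, the peroxiredoxin of the endoplasmic reticulum, had 49.1 ± 10.9 CPM in MM.1S with IT848 and 39.4 ± 2.35 CPM in MM.1S with DMSO (0.32 ± 0.11, edgeR adjusted p = 0.0430). It was called in only 7 of 20 alternative settings and stood at 0.09 with the length trend taken out, at 0.15 without replicate 3 of MM.1S with IT848 and at 0.33 without the 2 libraries with reads of the other line (edgeR adjusted p = 0.298, 0.153 and 0.0878). In U266 PRDX4 had 43.4 ± 1.57 CPM with IT848 and 48.0 ± 1.28 CPM with DMSO (-0.14 ± 0.11, edgeR adjusted p = 0.542).

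Among the inhibitor and clients of thioredoxin, 1 of 5 rose and 3 fell in MM.1S (18.7% and 19.6% of all genes), and 1 rose and 1 fell in U266 (4.03% and 4.98%). TXNIP, the protein that binds and inhibits thioredoxin, had opposite responses in the 2 lines. It fell by 0.35 on the log2 scale in MM.1S, to 102 ± 6.93 CPM with IT848 against 130 ± 3.50 CPM with DMSO (edgeR adjusted p = 0.000151). In U266 TXNIP rose by 0.22 ± 0.06, to 58.8 ± 0.41 CPM with IT848 against 50.5 ± 3.11 CPM with DMSO (edgeR adjusted p = 0.0200). The difference between the lines was -0.57 ± 0.08 (edgeR adjusted p = 0.000196), and the U266 call was lost without replicate 1 or replicate 3 of either U266 group (edgeR adjusted p = 0.0558 to 0.0975) and without the 2 libraries with reads of the other line (0.22, edgeR adjusted p = 0.0784). MAP3K5, the stress kinase that reduced thioredoxin holds inactive, fell by 0.26 in MM.1S and by 0.29 in U266 on the log2 scale, with edgeR adjusted p = 0.00430 and 0.00523.

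Of 16 thioredoxin-domain proteins, 4 rose and 2 fell in MM.1S, near the 18.7% and 19.6% of all genes, and 1 rose and 3 fell in U266, beside 4.03% and 4.98%. TXNL1, a proteasome-associated thioredoxin, rose by 0.86 ± 0.07 in MM.1S, and TXNDC9 rose by 0.68 ± 0.14. In U266, TXNDC5, an abundant oxidoreductase of the endoplasmic reticulum, fell by 0.38, with 3413 ± 138 CPM with IT848 and 4447 ± 13.4 CPM with DMSO, and TXNDC11 fell by 0.24, a call lost without replicate 1 or 3 with DMSO or replicate 2 or 3 with IT848 (edgeR adjusted p = 0.0750 to 0.109). TXNDC11 fell by 0.41 in MM.1S, with 361 ± 7.49 CPM with IT848 and 479 ± 4.48 CPM with DMSO (edgeR adjusted p = 4.83e-05). Of 4 glutaredoxins, which use glutathione in place of thioredoxin reductase, 3 rose in MM.1S and 1 rose in U266. GLRX rose by 1.11 ± 0.11 in MM.1S, with 189 ± 37.4 CPM with IT848 and 87.3 ± 7.39 CPM with DMSO. GLRX2 rose by 0.30 ± 0.06 in both MM.1S and U266, but in MM.1S it was at 0.04 with the length trend taken out (edgeR adjusted p = 0.574).

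Methionine sulfoxide reductases repair oxidised methionine with electrons from thioredoxin, and 1 of 4 rose in each line. MSRB1, a selenoprotein, had the largest response of the listed genes in MM.1S, with 31.0 ± 3.85 CPM with IT848 and 9.27 ± 0.95 CPM with DMSO (1.74 ± 0.09, edgeR adjusted p = 3.11e-09). In U266 the called member was MSRA, at 0.58 ± 0.18 CPM with IT848 and 0.31 ± 0.11 CPM with DMSO (0.96 ± 0.26, edgeR adjusted p = 0.0337). MSRA is high in MM.1S, at 34.5 ± 0.95 CPM with DMSO, and without the 2 libraries with reads of the other line its U266 value was 0.82 (edgeR adjusted p = 0.163). The call was also lost without replicate 2 or 3 of U266 with DMSO or replicate 1 or 3 of U266 with IT848 (edgeR adjusted p = 0.0739 to 0.166). Of the 3 sestrins, stress-induced regulators of nutrient signalling, SESN2 fell by 0.34 in MM.1S and rose by 0.38 ± 0.06 in U266. SESN3 rose by 0.36 ± 0.06 in MM.1S. In U266 SESN3 rose by 0.79 ± 0.19 at a level under 1 CPM, a call lost without the same 2 libraries (0.60, edgeR adjusted p = 0.156), without replicate 1 with IT848 (0.146) or without replicate 3 with DMSO (0.0863).

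The selenocysteine machinery, needed to make both reductases, had 1 of 7 genes rise and 1 fall in MM.1S, and 1 rise and 0 fall in U266. SEPHS2, which makes the selenium donor, rose by 0.32 ± 0.04 in MM.1S and by 0.35 ± 0.04 in U266. The gene that fell in MM.1S was SECISBP2, by 0.16 on the log2 scale (edgeR adjusted p = 0.0163), and it lost its call without replicate 2 or 3 of MM.1S with IT848 or replicate 2 of MM.1S with DMSO (edgeR adjusted p = 0.0502 to 0.0899), without the 2 libraries with reads of the other line (-0.12, edgeR adjusted p = 0.101) and with MM.1S fitted alone (0.0629). Among the other peroxide and superoxide enzymes, SOD1, the cytosolic superoxide dismutase, rose by 0.96 ± 0.06 in MM.1S and by 0.33 ± 0.05 in U266. Catalase, CAT, rose by 0.35 ± 0.07 in MM.1S. The third of the list, the mitochondrial SOD2, fell by 0.28 in MM.1S (edgeR adjusted p = 0.00741), so that 2 of 3 rose and 1 fell in MM.1S and 1 rose and 0 fell in U266.

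Under DMSO the listed genes differed between the lines as well, with 24 of 44 higher and 17 lower in MM.1S, beside 40.6% and 42.1% of all tested genes. TXNIP was at 130 ± 3.50 CPM in MM.1S with DMSO and 50.5 ± 3.11 CPM in U266 with DMSO (1.37 ± 0.06). NXN, nucleoredoxin, had 0.103 ± 0.017 CPM in MM.1S and 12.5 ± 0.62 CPM in U266, and SESN3 had 36.1 ± 0.76 CPM in MM.1S and 0.353 ± 0.046 CPM in U266. The family member farthest apart in the same comparison was PRDX5, at -0.69.

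The tested genes most like 4 of the members were found by the root mean square difference of log2(CPM + 0.5), centred on each gene's mean over the 12 libraries, with smaller values for closer patterns. For SRXN1 they were ABCB6, a porphyrin transporter (0.224), P4HA2, a subunit of collagen prolyl hydroxylase (0.293), and C5orf45 (0.319). ABCB6 had 75.2 CPM in MM.1S with IT848, 14.5 CPM in MM.1S with DMSO, 24.3 CPM in U266 with IT848 and 12.3 CPM in U266 with DMSO as group means. For TXNRD1 they were PIR-FIGF (0.111), PIR, the iron-binding pirin (0.132), and P4HA2-AS1 (0.139). PIR-FIGF is a readthrough symbol that shares reads with PIR, and P4HA2-AS1 is antisense to P4HA2 and may share reads with it. P4HA2-AS1 was under 3 CPM in each group, where the 0.5 added to the CPM narrows differences. Its log2 fold changes were 3.01 ± 0.22 in MM.1S and 1.33 ± 0.24 in U266, larger than the 1.86 and 0.85 of TXNRD1. PIR had 42.4 CPM in MM.1S with IT848, 9.21 CPM in MM.1S with DMSO, 17.0 CPM in U266 with IT848 and 9.36 CPM in U266 with DMSO. For TXN they were C15orf65 (0.103), which was under 3 CPM, VDAC3, a channel of the outer mitochondrial membrane (0.124), and NXT2 (0.130). In that order their log2 fold changes were 1.15 ± 0.20, 0.86 ± 0.09 and 0.79 ± 0.09 in MM.1S. In U266 they were 0.29 ± 0.23, 0.07 ± 0.09 and 0.14 ± 0.09, below the 0.38 of TXN. For PRDX1 they were MRPS6, a mitochondrial ribosomal protein (0.0594), CACYBP (0.0751) and PSMD11, a subunit of the proteasome lid (0.0818). The nearest other family member was TXNRD1 for SRXN1 (0.401), TXN for TXNRD1 (0.383), PRDX1 for TXN (0.317) and PRDX3 for PRDX1 (0.237).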

How the data were processed

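RNA of 12 libraries was sequenced as paired reads, per the labels' protocols. The submitters' processing notes name hg19 and the tools STAR 2.5.2b, Trimmomatic 0.36, bcl2fastq and, for counting, featureCounts (Subread 1.5.2). The annotation release, strand setting and treatment of multiple alignments were not given in the sources used here. The design text speaks of exome sequencing, but type and labels give RNA. Per the file headers, the deposited values hold a whole-number count of reads for each of 51780 transcripts. The deposited FPKM, scaled by the authors, was used only to recover transcript lengths, and the deposited TPM, also the authors' value, gave levels per length. A read is counted for every transcript it overlaps, so counts summed per symbol repeat reads.

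Counts were tested with edgeR 4.0.16 in R 4.3.3 (quasi-likelihood F test, all 12 libraries, a mean per group, TMM, minimum count 10), with Benjamini-Hochberg adjustment over 16782 genes and a threshold of 0.05. Script performance was checked on simulated data. Alternatives were DESeq2 1.42.0, RLE size factors, no filter, 1 transcript per gene, the compared groups alone, the length trend taken out, the replicate block, each library left out, and both libraries with reads of the other line left out. Totals were 50627690 to 72039748 counts, and counting error still weighs on genes with few counts, such as TXNRD2. No 2 libraries agreed within counting noise (chi-square per degree of freedom of 2.00 or more). The members and lists were chosen with earlier results of these data known. Named genes were all 10 members, PRDX4, TXNIP, at most the 2 largest called changes per list and comparison, SOD2 and TXNDC11 in MM.1S, added after their values were seen, and the 3 tested genes nearest in pattern to SRXN1, TXNRD1, TXN and PRDX1. Libraries with reads of the other line were recognised by genes over 50 CPM in one line and under 0.05 CPM in the other, judged in U266 with DMSO and in MM.1S with IT848.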

Additional observations from a re-analysis of the deposited data

Results flagged for a closer look

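A difference between the 2 lines in the response to IT848 passed the interaction test (edgeR's quasi-likelihood test, Benjamini-Hochberg adjusted) for 5 family members. In log2 units of MM.1S minus U266 the difference was 1.01 for TXNRD1, 0.97 for SRXN1, 0.58 for TXN, 0.36 for PRDX5 and 0.24 for PRDX1. Each of the 5 responses was positive in both lines.

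Among the related genes the same test passed for 9 of 44 higher and 3 lower, beside 8.49% and 8.94% of all tested genes, and 9 of the 12 are named by the rule. The response was larger in MM.1S for MSRB1 (1.63), GLRX (1.06), TXNL1 (0.68), SOD1 (0.63), CAT (0.49) and TXNDC5 (0.39). It was smaller in MM.1S for MSRA (-0.93), SESN2 (-0.72) and TXNIP (-0.57). TXNDC5 fell in U266, and SESN2 and TXNIP fell in MM.1S and rose in U266. MSRA was under 1 CPM in U266, and its difference was not called without the 2 libraries with reads of the other line (-0.76, edgeR adjusted p = 0.145). The call was also lost with 1 transcript per gene (-0.89, edgeR adjusted p = 0.122). Single libraries ended it too: replicate 2 or 3 of U266 with DMSO, replicate 1 or 3 of U266 with IT848, and replicate 2 of either MM.1S group (edgeR adjusted p = 0.0526 to 0.133).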

How the results depend on the processing

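Of 790 values of the 10 members under an alternative, 728 kept their direction and side of the threshold, 34 lost the call, 13 gained it and 15 changed sign. Those that changed sign were not called. With the length trend taken out, the MM.1S response of PRDX2 was -0.011 and of TXN2 -0.13 (edgeR adjusted p = 0.0570 for TXN2). In the same setting the U266 response of PRDX3 was -0.0030, and the difference for TXN2 -0.10. With 1 library left out, TXN2 ranged over -0.0274 to 0.0447 in MM.1S, -0.0490 to 0.0244 in U266 and -0.0196 to 0.0728 in the difference, PRDX3 in U266 over -0.0240 to 0.0528, and PRDX1 between the untreated lines over -0.0253 to 0.0613. The cause was not tested. The number of genes called for the difference, 2924, was 1712 without the 2 libraries with reads of the other line and 2208 to 3870 with 1 library left out. In U266 it was 924 without the 2 and 986 to 1827 with 1 library left out, against 1512. Members called numbered 3 to 4 in U266, 7 to 9 in MM.1S and 4 to 7 for the difference under all alternatives, and 5 to 8 between the untreated lines.

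Replicate numbers are shared between groups, but the labels do not say that they mark a shared culture or day. Same-numbered libraries deviated together with correlations of 0.515, -0.182 and 0.512 in MM.1S and 0.273, 0.225 and -0.0716 in U266, and not every library correlated best with its own number, so the numbers were not taken as pairs. With the replicate block, 4388 genes were called for the difference, PRDX2 and PRDX3 among them (edgeR adjusted p = 0.00985 and 0.0160). TXNRD2 was then called in MM.1S (0.0396) and not between the untreated lines (0.0514), and PRDX4 was called for the difference (0.0105).

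Depth limits TXNRD2 most among the members, at 415 to 887 counts in a library. Other limits are 3 libraries per group, the trend with length in MM.1S, and unknown handling of strand and of reads that fit several places.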

Other observations

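The 2 TXNRD2 transcripts in the tables were counted in different proportions in the 2 lines. Counts of NM_001282512 were 94.8% to 102% of those of NM_006440 in MM.1S with IT848 and 95.5% to 107% in MM.1S with DMSO. In U266 they were 60.9% to 67.0% with IT848 and 60.7% to 68.4% with DMSO. Libraries of the 2 lines did not overlap, and those of the 2 treatments did. This was not tested. How reads were shared between features is not given in the sources used here, so these proportions are uncertain. For PRDX5, which also has transcripts with unequal counts, NM_181652 had 90.0% to 91.6% of the counts of NM_012094 over all 12 libraries.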
